A study of Mus musculus with 6 samples.

Results

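The 9 genes Cd3d, Cd3e, Cd4, Cd8a, Cd8b1, Cd40lg, Il7r, Tcf7 and Lef1, which mark T cells, their CD4 and CD8 lineages and their naive and memory states, were read by gene symbol from single-cell RNA libraries of orthotopic liver tumors in mice. They are 9 of the 34099 genes in the feature lists, and they were followed over the 2490 cells annotated as NK/T cells among 58794 annotated cells, and over the 9 other annotated classes. The tumors were grown from H22, a murine hepatocellular carcinoma (HCC) line, in the liver of male wild-type C57BL/6J mice, obtained at 8 weeks of age. The 3 mice of the stress group went through chronic unpredictable mild stress before the tumor cells were placed, and the 3 control mice received the same tumor cells without stressors. Each mouse gave 1 library of 10x Genomics droplets, so the mouse is the replicate and a cell is not. Because tumor tissue of mixed cell types was dissociated, a class can hold cells of other types, and the NK/T class joins natural killer (NK) cells with T cells in a single cluster.

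CD3 is the signalling part of the T cell receptor. The genes Cd3d and Cd3e encode its delta and epsilon chains, which every alpha beta and gamma delta T cell carries and which NK cells lack on their surface. CD4, the co-receptor for MHC class II, marks helper and regulatory T cells, and CD8, made of an alpha chain (Cd8a) and a beta chain (Cd8b1), is the co-receptor for MHC class I on cytotoxic T cells. Developing thymocytes carry CD4 and CD8 together, whereas a mature T cell usually keeps 1 of them. Cd40lg encodes the ligand by which activated helper T cells signal to B cells and myeloid cells through CD40. Il7r encodes the alpha chain of the interleukin 7 receptor, which keeps naive and memory T cells alive. Tcf7 and Lef1 encode TCF1 and LEF1, DNA-binding partners of beta-catenin that mark naive, memory and stem-like T cells.

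The NK/T class is cluster 10 of the deposited annotation. It held 93, 674 and 126 cells in control mice 1, 2 and 3, and 269, 814 and 514 cells in stress mice 1, 2 and 3. Its summed unique molecular identifiers (UMIs, tags that count each captured RNA molecule once) ranged from 489460 to 7010268 per mouse, and the median UMI count of an NK/T cell was 2958, 3153 and 4376.5 in control mice against 4477, 4876.5 and 5923 in stress mice. Every control mouse thus had shallower NK/T cells than every stress mouse, and shares of cells with a UMI that are compared between the groups are given also after each cell was thinned to 1000 UMIs. The counting software, Cell Ranger, was version 9.0.0 in every control library and 7.1.0 in every stress library, so software version and stress cannot be told apart. Pairs of libraries shared 14 to 43 cell barcodes. Cells called doublets here, with Scrublet, made up 5.45% to 10.9% of the NK/T cells of a mouse and carried 16.1% to 41.6% of their UMIs, so each stress comparison was repeated without them.

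The label of the class was checked against markers. All 7 T cell markers on the marker list were highest in NK/T cells among the 10 classes, with Cd3g detected in 90.6%, Trac in 80.6% and Trbc2 in 86.8% of the cells. Of the 6 NK cell markers on the list, Ncr1, the activating receptor NKp46, was in 3.41%, Klrb1c, the NK1.1 antigen, in 2.49% and Klra8 in 2.01% of the cells. Tyrobp and Fcer1g were in 11.1% and 15.9%, and were highest in inflammatory myeloid cells and in monocytes. Klre1, a lectin receptor that some T cells also carry, was in 30.2%. RNA of other cell types was measured beside these. The 4 tumor cell markers summed to between 206 and 255 CPM (UMIs of a gene relative to all UMIs of the mouse and class) in NK/T cells of control mice and between 95.5 and 285 CPM in those of stress mice, and to between 26.1 and 48.7 and between 36.1 and 48.9 CPM without called doublets. The 5 dendritic cell (DC) markers summed to between 32.4 and 42.8 CPM in control mice and between 110 and 178 CPM in stress mice. That list is carried by Ccr7, at 69.4 CPM over all NK/T cells, and H2-Aa, at 35.7 CPM, while Xcr1 and Clec9a were at 0.162 and 0.647 CPM. In the 2 groups the 6 markers of monocytes and macrophages summed to 22.5 to 72.9 and 50.8 to 123 CPM, and the 5 B cell markers to at most 7.51 CPM. The part of this RNA in the results below was not tested.

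The genes lie at 7 places in the genome (GRCm38, GENCODE M21). Cd3d (ENSMUSG00000032094) is at chr9:44981786-44987339 on the plus strand, and Cd3e (ENSMUSG00000032093) at chr9:44998740-45009627 on the minus strand, 11400 bases further on. Cd8b1 (chr6:71322788-71337494) and Cd8a (chr6:71373427-71379173) both run on the plus strand with 35932 bases between them, and Cd4 lies at chr6:124864692-124888221 on the minus strand. Cd40lg is at chrX:57212143-57224042 (plus), Il7r at chr15:9505788-9530176 (minus), Tcf7 at chr11:52252371-52283014 (minus) and Lef1 at chr3:131110471-131224356 (plus). Cd3e, Tcf7 and Lef1 each overlap an antisense gene of the feature lists (Gm48719, A630014C17Rik and Gm43352). The paper describes libraries primed by poly(dT) on barcoded beads, with the transcript in a separate read. The strand setting of the counting is not given in the sources used here. Whether antisense reads entered the counts of these 3 genes was not tested.

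Promoter windows were available for 6 of the 9 genes, as the 250 bases before each RefSeq start (GRCm38.p6), and not for Cd4, Cd8b1 and Cd40lg. Shown here are the windows of Cd3d and Cd3e, the neighbours whose levels were most alike, of Cd8a, and of Il7r, whose pattern differed most from that of the CD3 genes by its level in myeloid cells. Each is written 5′ to 3′ on the strand of its gene, in the order chr9:44981536-44981785 (plus), chr9:45009612-45009861 (minus), chr6:71373177-71373426 (plus) and chr15:9529877-9530126 (minus). Capitals mark letters of 1 of 4 motifs searched on both strands: CTTTGAT for TCF/LEF, TGTGGT for RUNX, AGATAA for GATA and AGGAAG for ETS factors.
Cd3d: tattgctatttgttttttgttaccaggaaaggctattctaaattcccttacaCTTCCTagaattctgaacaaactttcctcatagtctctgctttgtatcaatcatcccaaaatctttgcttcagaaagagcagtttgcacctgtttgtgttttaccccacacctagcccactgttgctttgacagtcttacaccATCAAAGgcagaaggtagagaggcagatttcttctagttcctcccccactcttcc
Cd3e: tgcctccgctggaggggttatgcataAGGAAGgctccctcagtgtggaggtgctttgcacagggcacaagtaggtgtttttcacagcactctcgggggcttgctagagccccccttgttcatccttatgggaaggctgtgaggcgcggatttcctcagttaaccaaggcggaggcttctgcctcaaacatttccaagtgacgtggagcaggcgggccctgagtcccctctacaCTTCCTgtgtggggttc
Cd8a: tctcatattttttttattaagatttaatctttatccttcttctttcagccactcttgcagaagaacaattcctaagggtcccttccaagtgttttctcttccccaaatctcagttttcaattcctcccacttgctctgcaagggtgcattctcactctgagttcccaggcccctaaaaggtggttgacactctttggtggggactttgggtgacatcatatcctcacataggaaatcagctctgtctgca
Il7r: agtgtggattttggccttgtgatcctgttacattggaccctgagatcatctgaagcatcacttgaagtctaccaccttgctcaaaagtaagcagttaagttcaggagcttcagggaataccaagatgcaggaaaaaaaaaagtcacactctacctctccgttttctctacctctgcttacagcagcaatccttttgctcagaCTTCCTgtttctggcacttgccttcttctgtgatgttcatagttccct
The Cd3d window held a TCF/LEF match 55 bases before the start and an ETS match 198 bases before it, both on the strand opposite to the gene. The Cd3e window held ETS matches at 224 bases (same strand) and 17 bases (opposite strand), and the Il7r window an ETS match at 48 bases (opposite strand). The Cd8a window held none of the 4, nor did both Tcf7 windows, and 1 of 4 Lef1 windows held an ETS match. Over all 32851 promoter windows of this length, 3.21% held the TCF/LEF letters, 14.0% the RUNX, 9.99% the GATA and 29.5% the ETS letters. None of the 4 motifs contains another. A match is a description of letters and not of binding.

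All 9 genes had their highest mean CPM in NK/T cells, but they differed in how far they were confined to them. Of all UMIs of a gene over the annotated cells, NK/T cells held 87.3% for Cd3d, 85.9% for Cd3e, 86.0% for Cd8a, 87.6% for Cd8b1, 86.5% for Cd40lg and 82.9% for Lef1. Cd4 had 47.0% of its UMIs there, Il7r 27.6% and Tcf7 5.62%. The 3 genes with a lower share were each found in classes that are not T cells. For Il7r and Tcf7 the plot of the genes over the classes shows this as dots outside the top row. Cd4 was at 44.9 CPM in NK/T cells and at 6.87 CPM in the next class, B cells. Tumor cells, the largest class, held 713 of its 1795 UMIs at a mean of 0.949 CPM.

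**Figure D1:**
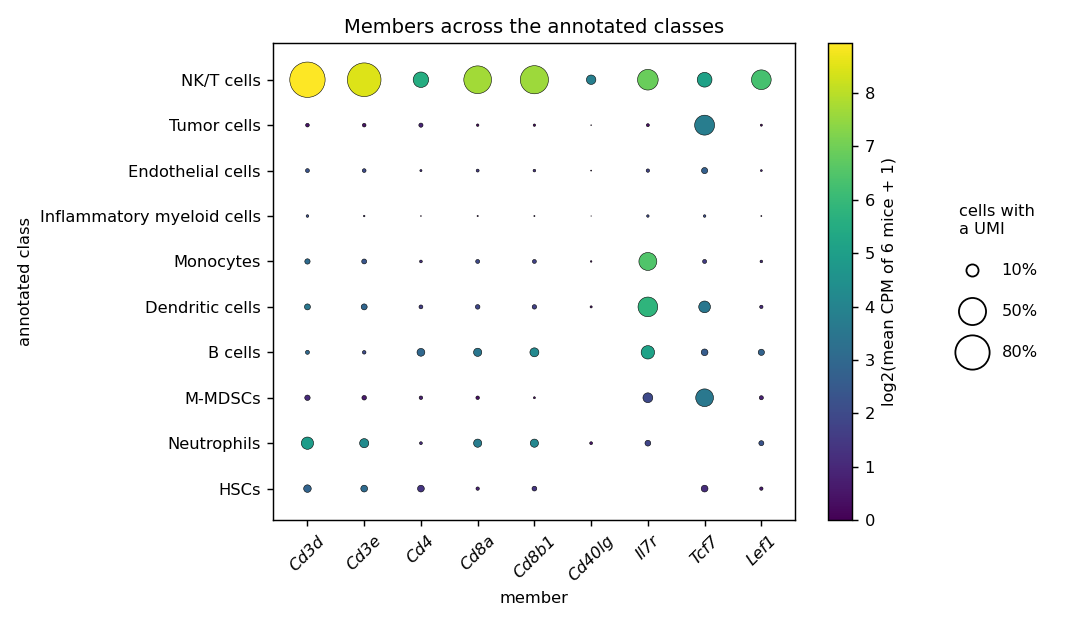
Levels of the 9 genes in the 10 annotated classes. Dot area is the share of cells with at least 1 UMI, and colour is log2(mean CPM over 6 mice + 1). NK/T cells are the top row, and dots outside it stand out for Il7r in monocytes, dendritic cells and B cells and for Tcf7 in tumor cells and M-MDSCs.

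For Cd3d the mean over 6 mice was 484 CPM in NK/T cells, followed by 29.1 CPM in neutrophils and 10.5 CPM in DCs. Cd3e had 347 CPM in NK/T cells, 18.3 CPM in neutrophils and 7.55 CPM in HSCs (a class named as in the annotation). Between NK/T cells and the next class the mice did not overlap, and from the neutrophils down the neighbouring classes overlapped. Cd8a stood at 205 CPM in NK/T cells and 12.4 CPM in neutrophils, and Cd8b1 at 195 CPM in NK/T cells and 17.5 CPM in B cells. Cd40lg was at 13.2 CPM in NK/T cells and at 0.485 CPM in the next class, neutrophils, and Lef1 at 76.7 CPM in NK/T cells and 5.93 CPM in B cells. The neutrophil class has 175 cells, and its values rest on 8 to 18 cells for Cd3d, Cd3e, Cd8a and Cd8b1. In neutrophils 10.3% of the cells had a Cd3d UMI, and in inflammatory myeloid cells, which should lack the gene, 0.460% of cells of a median depth of 1547 UMIs had one, against 85.2% of NK/T cells at a median depth of 4403 UMIs.

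Il7r was the member least confined to T cells among immune cells. Its mean was 116 CPM in NK/T cells, 87.8 CPM in monocytes, 54.9 CPM in DCs and 34.3 CPM in B cells. The ranges over mice of NK/T cells and of monocytes overlapped, while within a mouse NK/T cells had the higher level in 6 of 6 mice. Within monocytes Il7r was found in 42.8% of the cells of cluster 13 (152 CPM), 21.8% of cluster 11 (69.2 CPM) and 3.03% of cluster 12 (10.4 CPM). In DCs it was found in 41.7% of cluster 20 and 11.2% of cluster 19. Monocytes with an Il7r UMI had Arg1, which encodes arginase 1, in 79.6% of cells against 36.2% of the other monocytes, and Ly6c2, a marker of classical monocytes, in 16.9% against 44.2%. DCs with an Il7r UMI had Ccr7, the receptor that guides mature DCs to lymph nodes, in 66.9% against 25.9%. Cd3e was detected in 3.07% of the Il7r-carrying monocytes against 1.25% of the others, and in 5.84% of the Il7r-carrying DCs against 1.22%, so most of the carriers had no Cd3e UMI. The carriers were deeper, at medians of 6276 against 5056.5 UMIs in monocytes and 7544 against 5340 UMIs in DCs. These companion genes were chosen after their values were seen and carry no test.

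Tcf7 had more of its UMIs in tumor cells than in NK/T cells. Its level in CPM was higher in NK/T cells, at 33.2 CPM, than in tumor cells, at 12.4 CPM, and M-MDSCs (monocytic myeloid-derived suppressor cells) and DCs followed at 11 and 10.7 CPM. The class labelled M-MDSCs carried the tumor cell markers at tumor cell levels, with means over 6 mice of 340.2 CPM for Krt18, an epithelial keratin, 76.6 CPM for Afp and 135 CPM for Cldn6, against 423, 78.2 and 137 CPM in tumor cells, and its median depth of 27447.5 UMIs was near theirs. The part of tumor cell RNA in its Tcf7 level was not tested. Of the 29638 tumor cells 8021 had a Tcf7 UMI (27.1%, median depth of the class 27716 UMIs), against 14.8% of NK/T cells. After thinning to 1000 UMIs the order of the shares turned, with 1.25% of tumor cells and 4.74% of NK/T cells. The tumor cells with Tcf7 had Krt18 in 98.0% of cells, Cd3e in 1.02% and Lef1 in 0.374%. Tcf7 RNA in tumor cells was thus found in cells of which few had a Lef1 or Cd3e UMI.

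Cd4 and the CD8 genes were found in a small part of the B cell class. Of its 457 cells 36 had a UMI of Cd8a or Cd8b1. Those 36 cells had Siglech, a marker of plasmacytoid DCs, in 91.7% against 6.89% of the other cells, Cd79a, a B cell receptor gene, in 5.56% against 82.4%, Cd4 in 36.1% and Cd3e in 5.56%. Most of the cells with CD8 in the B cell class thus had a UMI of Siglech and none of Cd79a or Cd3e, genes chosen after their values were seen. The 121 monocytes with a Cd3d UMI had Cd3e in 62.8% of cells, and 30.6% of them were called doublets, against 4.81% of the other monocytes.

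The genes whose level ran most like that of a member were looked for over the 48 sums of 8 classes and 6 mice, as the Pearson correlation of log2(CPM + 1). The search covered the 8483 genes with a mean of at least 10 CPM in NK/T cells, so genes low in NK/T cells could not be named. The points share libraries and the class annotation, so these values describe the classes and are given without a test. Cd3d was most like Cd3e (r = 0.983), Cd3g (0.978), the gamma chain of CD3, and Ms4a4b (0.977). Next to Cd3d, Cd3e was most like Icos (0.981), a co-stimulatory receptor, and Cd3g (0.981). Cd8a and Cd8b1 were most like each other (0.975), and both were followed by Kdm2b (0.968 and 0.960), which was also nearest to Cd4 (0.923), ahead of Cd8a (0.920) and Lag3 (0.913). Cd40lg was most like the cytokine genes Ccl1 (0.980) and Xcl1 (0.971) and Gm57004 (0.973). Among the genes most like Il7r were Runx3 (0.922) and Phf11b (0.915). Lef1 was nearest to Cd96 (0.943), A430093F15Rik (0.921) and Lat (0.911), and Tcf7 had Zdhhc2 (0.843) and Ncaph (0.831) among its nearest, the lowest values among the 9 members.

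Within the 2490 NK/T cells the CD3 genes were detected in most cells and the co-receptors in different cells. Cd3d had a UMI in 85.2% of NK/T cells and Cd3e in 77.1%, and 2273 cells (91.3%) had at least 1 UMI of either. Cd8a was detected in 52.3%, Cd8b1 in 53.9%, Cd4 in 16.3% and Cd40lg in 6.10%. The genes of naive and memory cells were detected in 29.0% (Il7r), 26.4% (Lef1) and 14.8% (Tcf7). After thinning the shares were 45.9% (Cd3d), 34.2% (Cd3e), 19.2% (Cd8a), 21.8% (Cd8b1), 6.20% (Cd4), 2.31% (Cd40lg), 12.8% (Il7r), 8.47% (Lef1) and 4.74% (Tcf7).

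Cd4 and Cd8a were detected together in 10 of the 2490 cells (0.402%, exact 95% binomial interval 0.193% to 0.737%). If the 407 cells with Cd4 and the 1302 cells with Cd8a were spread independently, the product of the shares would put 212.8 cells (8.55%) in both. By mouse the cells with both were 0 of 93, 4 of 674 and 0 of 126 in control mice and 1 of 269, 4 of 814 and 1 of 514 in stress mice. A count of 0, read as up to 3 cells, allows a share of up to 3.23% in control mouse 1 and 2.38% in control mouse 3, where the exact 95% binomial interval reaches 3.89% and 2.89%, and intervals and floors cover counting error only. In every mouse the number lay below the product, which ranged from 5.44% to 10.2% of its NK/T cells. The shares of the 2 groups overlapped, and their means, 0.198% and 0.353%, did not pass the test (two-sided exact permutation test, p = 0.6, smallest possible p 0.1). The 10 cells had a median of 21168 UMIs (2895 to 57364), compared with 4403 for all NK/T cells, 4 of them were called doublets, all 10 had a CD3 UMI and 9 had Cd8b1. After thinning to 1000 UMIs, 153 cells had Cd4, 474 had Cd8a and 0 of 2468 cells had both, where the product gave 29.4 cells.

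Other pairs lay above, below or near the product, as the plot of pair co-detection shows. Cd8b1 was found with Cd8a in 1082 cells, 1.54 times the product, and with Cd4 in 24 cells, 0.11 times the product. Cd40lg was found with Cd4 in 107 cells, 4.31 times the product, with Cd8a in 5 cells (0.06 times) and with Cd8b1 in 10 cells (0.12 times). Of the cells with Cd40lg 70.4% had Cd4, and of the cells with Cd4 26.3% had Cd40lg. Among the naive and memory genes the pairs lay above the product: Il7r with Tcf7 in 199 cells (1.86 times), Tcf7 with Lef1 in 177 cells (1.82 times) and Il7r with Lef1 in 254 cells (1.33 times). Cd8a and Tcf7 shared 141 cells (0.73 times), fewer than the product in all 6 mice. Cd3d with Il7r (1.01 times), Cd3e with Il7r (0.99 times) and Cd4 with Lef1 (1.05 times) lay near it. After thinning, Cd4 with Lef1 was at 0.46 times the product (6 cells), Il7r with Tcf7 at 2.75, Tcf7 with Lef1 at 3.13 and Il7r with Lef1 at 2.06 times. Cells also differ in depth, and Cd3d with Cd3e, both found in most cells, gave 1.08 times the product.

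**Figure D2:**
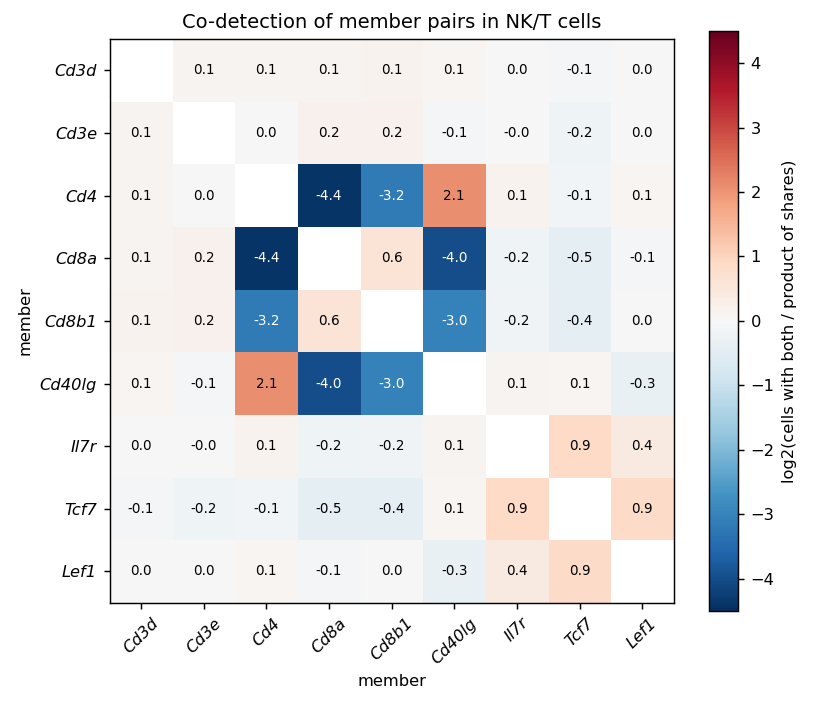
Co-detection of each pair of the 9 genes in 2490 NK/T cells. Each square gives log2 of the number of cells with UMIs of both genes over the product of the 2 shares times the cells, so 0 is the product, blue fewer cells and red more. Cd4 with Cd8a, Cd4 with Cd8b1 and Cd40lg with both CD8 genes are blue, and Cd4 with Cd40lg is red.

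By co-receptor 397 cells had Cd4 without Cd8a, 1292 had Cd8a without Cd4, and 609 CD3-detected cells (24.5% of the class) had neither. The 2 chains of CD8 were not always seen together, with 219 cells that had Cd8a without Cd8b1 or Cd4, and 246 cells that had Cd8b1 without Cd8a or Cd4 (261 with those that had Cd4). The ratio of Cd8b1 to Cd8a UMIs was 0.615, 1.04 and 0.941 in control mice against 1.01, 1.17 and 1.01 in stress mice. Control mouse 1, with the fewest NK/T cells, was lowest, and the groups overlapped (0.866 ± 0.223 against 1.07 ± 0.0892, SD, n = 3 each, two-sided exact permutation test, p = 0.3). The ratio was higher under stress in each of the 3 same-numbered pairs (exact paired permutation test, p = 0.25, the smallest possible).

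Cells with Cd4 and cells with Cd8a differed in many other genes. The 2 sets were compared within each of the 6 mice on summed UMIs with edgeR's quasi-likelihood test, the mouse as a block, and Benjamini-Hochberg adjustment over 7230 genes, of which 779 passed the threshold of 0.05 (10.8%, with 6.85% higher and 3.93% lower in Cd4 cells). Cd4 and Cd8a chose the cells and were not tested, and Cd40lg did not pass the filter on low counts. Of the 6 remaining members 2 passed the test, Il7r and Cd8b1, and Cd8b1 entered through the Cd8a cells. Depth differed between the sets, with a median of 4186 UMIs for Cd4 cells and 5516.5 for Cd8a cells. The Cd4 set was small, with 18, 65 and 14 cells in control mice and 49, 160 and 91 cells in stress mice. In control mouse 3, 4 of the 14 cells were called doublets.

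Cd8b1 was the member that differed most. Its levels in Cd4 cells were 0, 18.4 and 0 CPM in control mice and 3.62, 4.34 and 4.10 CPM in stress mice, against 190, 310 and 280 CPM and 251, 258 and 308 CPM in Cd8a cells. No Cd4 value came near the Cd8a values, and the log2 fold change was -5.60 (SE 0.26). Cd8b1 passed the filter on low counts through the Cd8a cells, where it was high, so its p-value is not read. Il7r in Cd4 cells was 71.7, 169 and 346 CPM in control mice and 156, 79.8 and 90.2 CPM in stress mice, against 91.9, 85.0 and 75.2 CPM and 54.0, 52.0 and 86.6 CPM in Cd8a cells. It was higher in Cd4 cells in 5 of 6 mice, with a log2 fold change of 0.83 (SE 0.20, adjusted p = 0.00624), and the call was lost without the mouse block (adjusted p = 0.0802) and with DESeq2 (adjusted p = 0.0576). Without control mouse 3, whose 346 CPM rest on 14 cells, the log2 fold change was 0.64. Tcf7 was 34.4 ± 13.9 CPM in Cd4 cells and 22.4 ± 10.3 CPM in Cd8a cells, and Lef1 82.1 ± 60.2 and 59.9 ± 17.1 CPM (SD, n = 6), and neither passed the test (log2 fold changes 0.53 and 0.15, SE 0.23 and 0.18, adjusted p = 0.169 and 0.718). Cd3d and Cd3e gave -0.06 and -0.36 (adjusted p = 0.898 and 0.0946). Cd40lg, filtered out here, had a UMI in 26.2% of Cd4 cells and in 2 of 1292 Cd8a cells (0.155%). In Cd4 cells it was 11.9, 86.0 and 35.5 CPM in control and 86.8, 66.8 and 64.2 CPM in stress mice. Without that filter edgeR and DESeq2 called Cd40lg, but it was near absent from Cd8a cells, so these calls are not read as a result. Foxp3, which encodes the factor that defines regulatory T cells (Tregs), was in 35 Cd4 cells (8.82%).

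The companion lists were read in the same fit. Of 15 genes of the T cell receptor complex and its signalling, 7 were higher in Cd4 cells and none lower (list median 0.33 on the log2 scale, all genes -0.01), led by Cd5, an inhibitory receptor of T cells (1.29, SE 0.15, adjusted p = 7.4e-07), and Cd247, the zeta chain (1.29). Of 15 effector and exhaustion genes 7 were lower, 4 higher and 4 neither. The 5 of them with the largest change were lower, namely Gzma (granzyme A, -4.32, SE 0.42, adjusted p = 5.7e-08), Prf1 (perforin, -3.67), Gzmb (granzyme B, -2.68), the chemokine Ccl5 (-2.57) and Nkg7 (-1.40). Of 7 tested NK cell genes 4 were lower, among them the lectin receptors Klre1 (-4.65) and Klrk1 (-4.40). All 5 tested Treg genes were higher, led by Tnfrsf4, the OX40 receptor (2.83, SE 0.16, adjusted p = 1.58e-11), Tnfrsf18 (1.87) and Ikzf2 (1.81). Of 10 tested naive and memory genes 1 was higher (Bcl2, a survival factor, 0.67) and 1 lower (Bach2, a repressor of effector genes, -1.02).

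The cells without a CD3 UMI were a smaller and shallower set. They numbered 217, with a median of 2958 UMIs against 4597 for the CD3-detected cells, and the share of NK/T cells with CD3 was 93.5%, 89.5% and 94.4% in control mice against 91.1%, 90.9% and 93.2% in stress mice. The groups overlapped, at 92.5% ± 2.65 and 91.7% ± 1.27 (SD, n = 3 each, two-sided exact permutation test, p = 0.8), and thinned shares were 60.9%, 65.2% and 64.3% against 62.2%, 55.1% and 65.7%. In control mice 1 and 3 the CD3-free cells were too few to test, so the sets were compared within control mouse 2 and the 3 stress mice, over 8815 genes of which 5.57% passed (1.57% higher and 4% lower in CD3-detected cells). Cd3d and Cd3e chose the cells, and 4 of the 7 other members passed.

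Both CD8 genes and Cd4 were higher in CD3-detected cells. Cd8a was 228, 181, 152 and 227 CPM in CD3-detected cells of control mouse 2 and stress mice 1, 2 and 3, against 51.5, 20.7, 19.1 and 30.9 CPM in CD3-free cells (log2 fold change 2.64, SE 0.26, adjusted p = 2.5e-08). Cd8b1 rose by 2.48 (SE 0.35, adjusted p = 1.52e-05), by 4.12 without control mouse 2 and by 3.64 with DESeq2. Cd4 was 31.5, 55.6, 51.9 and 53.8 CPM against 14.7, 0, 14.8 and 30.9 CPM, with a log2 fold change of 1.58 (SE 0.39, adjusted p = 0.0100), a call that was lost without the mouse block (adjusted p = 0.0642), with DESeq2 (0.0976) and without stress mouse 2 (0.149). Tcf7 went the other way, with 35.4, 32.4, 28.8 and 46.5 CPM in CD3-detected cells and 44.2, 51.8, 57.2 and 131 CPM in CD3-free cells. It was lower with CD3 in 4 of 4 mice (log2 fold change -0.92, SE 0.26, adjusted p = 0.0329), but the adjusted p ranged from 0.0159 to 0.280 over 9 alternatives and stayed under 0.05 in 3 of them, and it was 0.225 without the mouse block, 0.231 without stress mouse 2 and 0.280 without stress mouse 3. Cd40lg, Il7r and Lef1 did not pass (log2 fold changes 0.13, -0.16 and -0.19, adjusted p = 0.949, 0.819 and 0.826). The plot of both splits sets these values side by side.

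**Figure D3:**
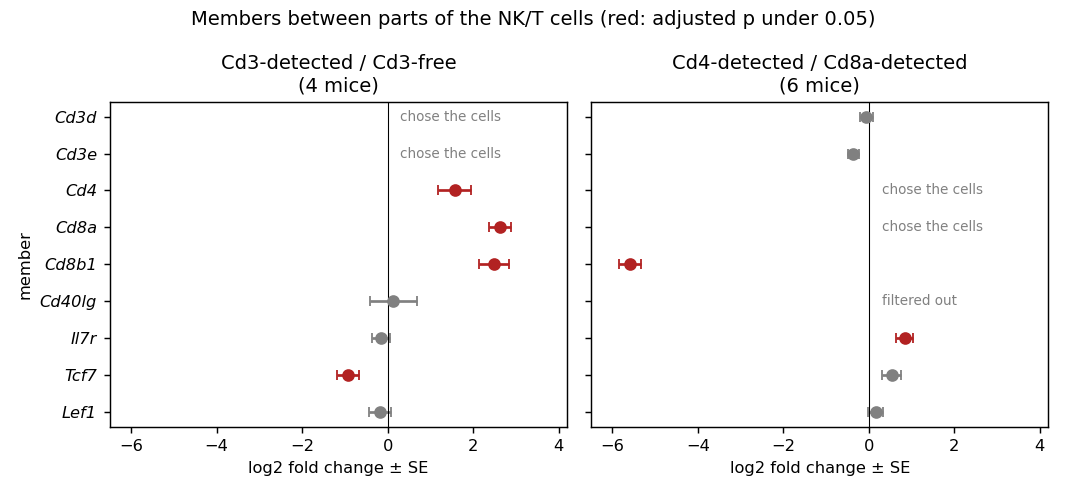
Log2 fold change with its standard error for each of the 9 genes between CD3-detected and CD3-free NK/T cells (left, 4 mice) and between Cd4-detected and Cd8a-detected NK/T cells (right, 6 mice), by edgeR with the mouse as a block. Red points passed an adjusted p of 0.05, grey points did not, and words mark genes that chose the cells or did not pass the filter. Cd8a and Cd8b1 lie far to the right on the left side, and Cd8b1 far to the left on the right side.

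In the same fit all 11 NK cell genes were lower in CD3-detected cells, among them Ncr1 (-6.97, SE 0.38, adjusted p = 2.11e-13) and Klrb1c (-7.08). Of the 15 receptor complex and signalling genes 7 were higher, led by Trac (2.21, SE 0.25, adjusted p = 4.93e-07), the alpha chain constant region, and Cd3g. Of 12 naive and memory genes 7 were lower and none higher (list median -0.86, all genes 0.04). Among them were Bach2 (-1.79) and Eomes (-1.69), and Eomes is a gene that NK cells also express. Of 15 effector and exhaustion genes 6 were higher, led by Pdcd1, the PD-1 receptor (1.87, SE 0.24, adjusted p = 2.6e-06), and Havcr2 (1.40), and 3 were lower, led by Gzma (-2.89). Of the 7 listed gamma delta T cell genes 1 was tested and did not pass, and 1 of 5 tested Treg genes, Tnfrsf4, was higher (1.91).

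Of the CD3-detected cells 774 had a UMI of Tcf7 or Lef1 and 1499 had neither. The share was 28.7%, 34.7% and 30.3% in control mice against 26.5%, 33.6% and 39.7% in stress mice, and thinned shares were 14.3%, 16.5% and 6.17% against 7.23%, 9.93% and 10.7%. The groups overlapped (31.2% ± 3.08 against 33.3% ± 6.58, SD, n = 3 each, two-sided exact permutation test, p = 0.7). Since the 2 genes chose the cells, the levels of other genes in them are given as a description. The cells with Tcf7 or Lef1 were deeper (median 5194 against 4372 UMIs) and more often called doublets (12.4% against 7.20%), and the part of this in the values was not tested. Il7r was 154 ± 51.2 CPM (SD, n = 6 mice) with Tcf7 or Lef1 and 92.6 ± 37.5 CPM without, higher in 6 of 6 mice. Of all 11196 genes tested in NK/T cells, 8.57% were higher and 6.73% lower in 6 of 6 mice between these sets. Of the 12 naive and memory genes 5 were higher in 6 of 6 mice: Klf2 (232 against 148 CPM) and S1pr1, which together keep T cells in circulation, Bach2 (179 against 119 CPM), Bcl2 (164 against 80.6 CPM) and Satb1. Another 2, Cd27 (87.1 against 146 CPM) and Il2rb (286 against 463 CPM), were lower in 6 of 6 mice, and 5 were mixed, Foxo1 with 3 mice each way. Of the 15 effector and exhaustion genes 13 were lower in 6 of 6 mice, among them Ccl5 (3375 against 7246 CPM), Ifng (94.2 against 248 CPM), Prf1, Gzmb (439 against 772 CPM), Pdcd1 and Lag3 (31.1 against 88.3 CPM), and 2, Gzmk and Tigit, were mixed. Cd8a (127 against 269 CPM), Cd8b1 (143 against 242 CPM), Cd3d and Cd3e were also lower in 6 of 6 mice, and Cd4 was 46.0 and 46.9 CPM.

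Stress was then compared with control in NK/T cells. None of the 9 genes passed the adjusted threshold in edgeR's quasi-likelihood test on UMIs summed per mouse, with Benjamini-Hochberg adjustment over 11196 genes of which 96 passed (0.857%). At an unadjusted p under 0.05 there were 3 (Cd3d, Cd4 and Il7r), where 13.1% of all genes tested had one, and DESeq2 called none. The CPM of the 2 groups did not overlap for Cd40lg and Il7r, 2 of 9, where 20.1% of all genes tested did not overlap. NK/T counts were also simulated, with a single dispersion of 0.05 for all genes. Only genes above a minimum expected count in the smallest library were changed, and Cd40lg lay below that minimum. The test found 45 of 100 genes changed by 1 on the log2 scale and 100 of 100 changed by 2. A change of 1 was thus often missed in that setting, and smaller changes were not simulated. In summed counts, fewer cells of a type and less RNA per cell cannot be told apart.

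**Figure D4:**
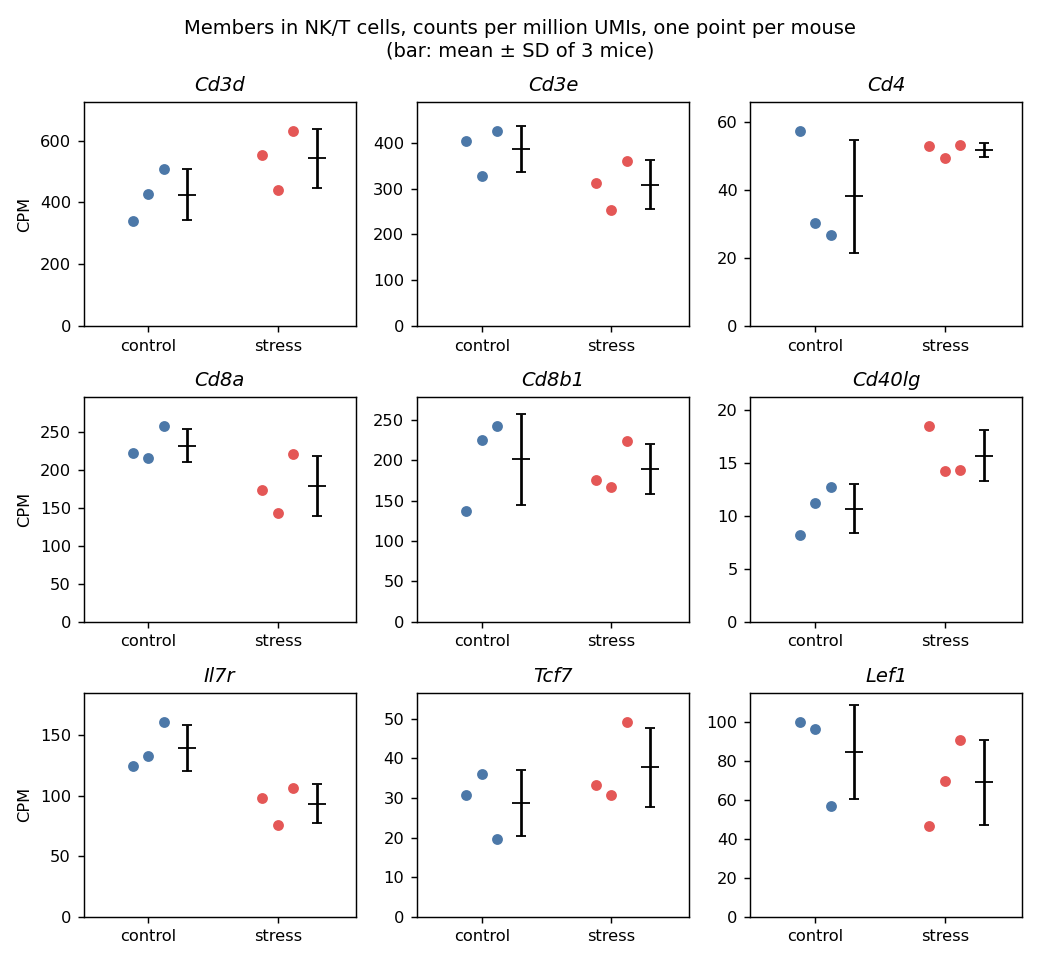
CPM of the 9 genes in NK/T cells, 1 point per mouse for 3 control mice (blue) and 3 stress mice (red), with the mean ± SD beside them, and each vertical axis from 0. The groups are apart only for Cd40lg (higher in stress mice) and Il7r (lower in stress mice), and neither passed the adjusted test. Cd40lg overlapped without called doublets.

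Among the CD3 genes, Cd3d was 341, 428 and 507 CPM in control mice and 555, 441 and 630 CPM in stress mice. Cd3e was 405, 328 and 425 CPM and 312, 253 and 361 CPM. Their log2 fold changes had opposite signs, 0.42 (SE 0.19, adjusted p = 0.374) and -0.24 (SE 0.18, adjusted p = 0.631), and the CPM of the groups overlapped for each. The share of cells with a Cd3e UMI after thinning did not overlap, at 43.5%, 38.7% and 41.3% in control mice against 30.3%, 28.7% and 35.7% in stress mice. Such thinned shares did not overlap for 15.7% of all genes tested. Of the co-receptors, Cd4 was 57.2, 30.4 and 26.6 CPM in control mice and 52.8, 49.4 and 53.1 CPM in stress mice. Control mouse 1, where the value rests on 28 UMIs, was the highest of all 6, and the log2 fold change was 0.65 (SE 0.24, adjusted p = 0.275). Cd8a was 223, 216 and 257 CPM and 173, 143 and 221 CPM (log2 fold change -0.30, SE 0.19, adjusted p = 0.545), and Cd8b1 137, 225 and 242 CPM and 176, 167 and 224 CPM (-0.04, SE 0.20, adjusted p = 0.970).

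Cd4 made up 20.4%, 12.3% and 9.39% of the Cd4 and Cd8a UMIs in control mice against 23.4%, 25.7% and 19.4% in stress mice. Only control mouse 1 reached into the stress values (14.1% ± 5.72 against 22.8% ± 3.21, SD, n = 3 each, two-sided exact permutation test, p = 0.2). Stress was higher in each of the 3 same-numbered pairs, for which the exact paired permutation test gave p = 0.25, the smallest that 3 pairs allow. With each cell thinned to 1000 UMIs, which gives every cell the same weight, the values were 14.6%, 13.4% and 10.0% in control mice against 34.1%, 31.6% and 28.0% in stress mice. The groups did not overlap there, and p was 0.1, the smallest that 3 against 3 mice allow. These values come from a single random draw and few cells. In it Cd4 was found in 6, 26 and 3 cells of control mice and in 26, 65 and 27 cells of stress mice.

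Cd40lg rested on few molecules, with 4, 46 and 11 UMIs in control mice and 36, 100 and 59 UMIs in stress mice. Its level was 8.17, 11.2 and 12.7 CPM against 18.5, 14.3 and 14.3 CPM, every stress mouse above every control mouse, with a log2 fold change of 0.56 (SE 0.30, adjusted p = 0.456). The share of cells with a UMI was 2.15%, 3.86% and 3.97% in control mice against 8.92%, 7.49% and 6.61% in stress mice. In cells thinned to equal depth the share was 2.17%, 1.64% and 1.59% against 3.37%, 2.99% and 1.76%, and the groups overlapped. Without called doublets the CPM overlapped too, at 14.0, 18.0 and 15.7 against 25.9, 23.4 and 15.9 CPM.

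Il7r was 125, 133 and 161 CPM in control mice and 97.9, 75.5 and 107 CPM in stress mice, every stress mouse below every control mouse, a log2 fold change of -0.51 (SE 0.19, adjusted p = 0.271). The share of cells with a UMI overlapped, at 31.2%, 30.6% and 33.3% against 27.1%, 26.0% and 31.3%, and after thinning it was 17.4%, 17.0% and 16.7% against 9.74%, 9.20% and 12.5%. Tcf7 was 30.6, 36.0 and 19.7 CPM in control mice and 33.3, 30.7 and 49.2 CPM in stress mice (0.41, SE 0.26, adjusted p = 0.545). Lef1 was 100.1, 96.4 and 56.7 CPM and 46.7, 69.8 and 90.6 CPM (-0.21, SE 0.23, adjusted p = 0.774). In CPM the groups overlapped for these 2 transcription factors, and control mouse 3 was lowest of its group for each. The thinned share of cells overlapped for Tcf7, at 6.52%, 5.68% and 3.17% against 3.0%, 4.35% and 5.10%, and did not for Lef1, at 13.04%, 11.7% and 9.52% against 4.12%, 6.97% and 7.84%, as for 15.7% of all genes tested.

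Leaving out called doublets changed the calls for 2 members, where 4.38% of the 9687 genes tested passed and 24.6% did not overlap. Il7r was then 207, 215 and 214 CPM in control mice and 116, 120 and 122 CPM in stress mice, and its log2 fold change was -0.78 (SE 0.12, adjusted p = 0.00296). Cd8a was 350.0, 331 and 352 CPM and 229, 219 and 248 CPM (log2 fold change -0.52, SE 0.13, adjusted p = 0.0342). Cd3e, at 627, 499 and 598 CPM and 408, 385 and 404 CPM, did not overlap either but did not pass (-0.46, SE 0.13, adjusted p = 0.0717). The sum of the 7 T cell markers was 4774 to 5979 CPM in control mice and 3959 to 4402 CPM in stress mice without doublets, and its part in these values was not tested. Without doublets 424 genes passed in place of 96. The adjusted p of Il7r over the other 13 alternatives was never under 0.05, with 0.0726 for the replicate block the lowest, and it lay between 0.240 and 0.581 when a mouse was left out.

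Of the lists in NK/T cells, 1 gene passed with stress, as did 0.857% of all genes tested. Ccr7, the lymph node homing receptor of naive and central memory T cells and of mature DCs, was higher in stress mice (log2 fold change 1.90, SE 0.31, adjusted p = 0.0132). In CD3-detected cells it was 29.4, 26.0 and 29.0 CPM in control mice and 124, 53.7 and 122 CPM in stress mice. The call was lost without any 1 of the control mice (adjusted p = 0.0619, 0.0640 and 0.0743 without control mice 1, 2 and 3), and in Cd4-detected cells alone (0.172). The other 11 naive and memory genes did not pass, nor did the 15 receptor complex, 15 effector, 11 NK, 6 Treg and 1 gamma delta T cell genes tested. At an unadjusted p under 0.05 these lists held 3 (naive and memory), 3 (receptor complex), 1 (effector), 1 (NK), 2 (Treg) and 0 (gamma delta) genes, where 13.1% of all genes tested had one. No gene, member or other, passed a test of whether the stress effect differed between Cd4 and Cd8a cells (0% of 7230 genes), where edgeR gave an unadjusted p under 0.05 for 270 genes (3.73%) and for none of the 6 members tested.

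Outside NK/T cells, 1 member passed with stress, Cd4 in tumor cells. Its level there was 0.258, 0.184 and 0.179 CPM in control mice and 1.45, 2.20 and 1.43 CPM in stress mice, from 32, 23 and 16 cells against 97, 110 and 75 cells. Every stress mouse lay above every control mouse, with a log2 fold change of 2.87 (SE 0.27, adjusted p = 0.0036), in a class where 21.4% of the genes passed and 28.2% were higher in every stress mouse. The effect was larger than that in NK/T cells by 2.26 on the log2 scale (SE 0.31, adjusted p = 0.00134, where 0.742% of genes passed), a comparison added after the data were seen. Of the 353 tumor cells with a Cd4 UMI 95.5% had Krt18, 14.4% had Csf1r, a receptor of macrophages, against 2.88% of the other tumor cells, and 1.42% had Cd3e. The level was low, at 1.19% of tumor cells and 0.0955% after thinning. Of the other 7 members tested in tumor cells, Tcf7 was 9.90, 11.3 and 12.2 CPM in control mice and 12.5, 13.9 and 14.8 CPM in stress mice (0.16, SE 0.11, adjusted p = 0.340). Cd3d, Cd8b1 and Lef1 reached the cutoff of the filter on low counts in 3 stress mice and in only 2, 1 and 2 control mice, so only their values are given. Cd3d was 0.0586, 0.580 and 0.0800 CPM in control mice and 0.195, 1.08 and 0.415 CPM in stress mice. Cd8b1 was 0.0293, 0.204 and 0.0554 CPM and 0.0723, 0.5003 and 0.135 CPM. Lef1 was 0.0234, 0.145 and 0.0739 CPM and 0.145, 0.434 and 0.145 CPM. The groups overlapped for each of these 3 genes.

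In DCs none of 4 tested members passed in edgeR, in a class where 2.64% of genes did. Il7r and Tcf7 reached the cutoff of the filter on low counts in all 6 mice, and both had an unadjusted p under 0.05, as 17% of genes did. Cd3d and Cd3e reached it in 3 stress mice and in 0 and 1 control mice, so they entered through the group where they were high and only their values are given. Il7r was 63.7, 30.6 and 31.4 CPM in control mice and 58.0, 54.9 and 90.8 CPM in stress mice, so the groups overlapped (log2 fold change 0.96, SE 0.29, adjusted p = 0.103, with the replicate block 0.94 and 0.0275). The makeup of the class moved with it: cluster 20, where Il7r was higher than in cluster 19, held 25.3%, 40.5% and 25.9% of the DCs of control mice against 50.4%, 63.3% and 52.2% of those of stress mice. Within cluster 20 Il7r was 56.0, 93.2 and 84.8 CPM against 97.2, 139 and 175 CPM, and within cluster 19 it was 66.8, 9.30 and 16.3 CPM against 22.4, 4.52 and 30.8 CPM. Control mouse 1 had 9 Il7r UMIs in cluster 20, and the part of this makeup in the stress values was not tested. The effect on Il7r in DCs and that in NK/T cells had opposite signs, and their difference of 1.56 on the log2 scale (SE 0.27) had an adjusted p of 0.0363, where 0.256% of genes passed. It was lost without control mouse 2, control mouse 3 or stress mouse 2 (adjusted p = 0.150, 0.217 and 0.165). Cd3d in DCs was 0, 4.17 and 3.74 CPM in control mice and 29.4, 7.74 and 17.8 CPM in stress mice. Cd3e was 0, 3.47 and 5.98 CPM and 13.4, 6.55 and 9.98 CPM. Tcf7 in DCs was 7.08, 8.68 and 8.23 CPM and 11.8, 14.0 and 14.6 CPM (0.85, SE 0.28, adjusted p = 0.138).

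**Figure D5:**
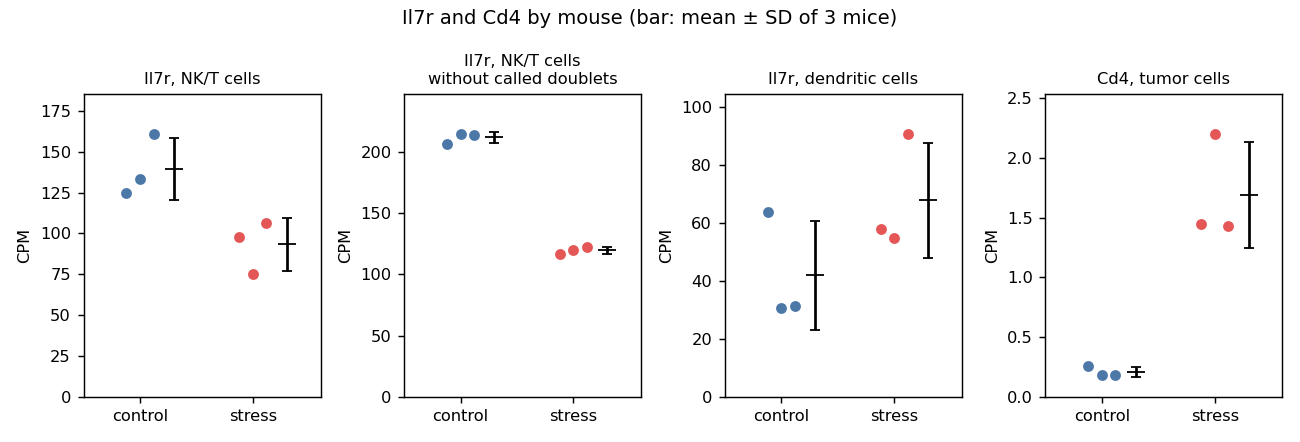
CPM per mouse of Il7r in NK/T cells, in NK/T cells without called doublets and in dendritic cells, and of Cd4 in tumor cells, 1 point per mouse (control blue, stress red) with the mean ± SD of 3 mice and each axis from 0. Il7r was lower in all stress mice in both NK/T plots, overlapped in dendritic cells, and Cd4 in tumor cells was higher in all stress mice.

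In monocytes none of 6 members passed in edgeR (0.122% of genes did). Cd3d, Cd3e, Cd8a and Cd8b1 reached the cutoff of the filter on low counts in 3 stress mice and in only 2, 2, 1 and 1 control mice. They entered through the group where they were high, so their p-values are not read. Il7r was 118, 71.3 and 104 CPM in control mice and 82.2, 55.2 and 96.4 CPM in stress mice (-0.26, SE 0.27, adjusted p = 0.717). Cd3d in monocytes was 0, 6.04 and 1.73 CPM and 9.34, 14.8 and 13.4 CPM, higher in every stress mouse as were 6.82% of genes. Because Cd3d entered through the stress mice, this separation is not read as a result. Of the 121 monocytes with a Cd3d UMI, 30.6% were called doublets. Cd8a there was 0, 1.97 and 1.48 CPM in control mice and 3.57, 6.30 and 4.41 CPM in stress mice. Cd4 in monocytes did not pass the filter, at 0, 2 and 0 UMIs in control mice and 14, 14 and 31 UMIs in stress mice. It reached the cutoff in 0 control mice and 2 stress mice. DESeq2, which ran without that filter, called it, but this call is not read as a result. No member passed a test of whether the stress effect differed between monocytes and NK/T cells (0.0157% of genes did). Of the 9 members, 5 (Cd3d, Cd3e, Cd4, Cd8a and Cd8b1) had an unadjusted p under 0.05 there, where 5.02% of all genes had one. In monocytes each of these 5 reached the cutoff of the filter in more stress mice than control mice, so these p-values are not read as a result. In B cells, where 0.483% of genes passed, Il7r alone was tested and did not pass, at 0, 26.0 and 24.2 CPM and 42.2, 71.9 and 41.8 CPM. It reached the cutoff of the filter in 3 stress mice and 2 control mice, and control mouse 1 had no Il7r UMI in 20 B cells. In M-MDSCs, where 0.561% passed, Tcf7 alone was tested, at 7.74, 8.67 and 8.37 CPM and 12.1, 17.8 and 11.2 CPM (0.71, adjusted p = 0.562). In endothelial cells none of 7 members passed in edgeR (0.213% of genes did), with 0 at an unadjusted p under 0.05 (15.6% of genes), and in inflammatory myeloid cells no member passed the filter on low counts. Tcf7 was thus higher in every stress mouse than in every control mouse in tumor cells, DCs and M-MDSCs, as were 28.2%, 8.28% and 7.64% of the genes tested there, and passed the test in none of these classes. In B cells, where it did not pass the filter, it rested on 2, 4 and 3 UMIs in control mice and 0, 4 and 2 UMIs in stress mice (9.49, 7.42 and 6.59 against 0, 5.23 and 1.61 CPM), and in NK/T cells, endothelial cells and monocytes the groups overlapped.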

How the data were processed

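The deposited matrices hold, for each of 6 libraries of dissociated tumor tissue (1 per mouse), the authors' UMI counts without normalization, with the genome build mm10 and the tools Cell Ranger and Seurat in the submitters' processing notes. They removed doublets with Scrublet and cells with more than 20% mitochondrial reads or under 200 genes, and their deposited annotation gives each kept cell a mouse, a cluster number and a cell type. Cell type names were taken from that annotation, and 58794 of 61374 barcodes had 1. Totals in the annotation differed from the matrix by at most 87 UMIs per cell, and the matrix counts were used. For alignment and strand, the settings were not given in the sources used here.

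The 9 members and the gene lists were chosen with earlier results of these data known, and the named list genes are, per list and comparison, the up to 5 past the threshold with the largest absolute log2 fold change. Some genes that this rule or the likeness ranking names are not reported here. UMI counts were summed per mouse and class, or per mouse and part of the NK/T class with at least 10 cells, and entered edgeR 4.0.16 under R 4.3.3 (quasi-likelihood F test after filterByExpr and TMM, Benjamini-Hochberg adjustment over all genes tested, threshold 0.05). A standard error is the absolute log2 fold change divided by the square root of F. CPM values relate a gene's UMIs to all UMIs of the same mouse and class. Per-mouse shares and ratios were compared with two-sided exact permutation tests (scipy 1.17.1, numpy 2.4.6, Python 3.11.15). Cells were thinned to 1000 UMIs with 22 shallower NK/T cells left out. Doublets were called per library with Scrublet in scanpy 1.11.5. Neutrophils and HSCs had under 10 cells in some mouse and give levels only.

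Deviations from the group means were weakly correlated in same-numbered control and stress mice (r = 0.243, 0.297 and 0.161 for numbers 1, 2 and 3). Different-numbered mice gave -0.376 to 0.0931. The labels state no pairing, and deviations within a group cancel, so these values do not establish one. The replicate number was tried as a block, and where that block changes a call this is given beside the result or among the alternatives. Alternatives were DESeq2 1.42.0, RLE normalization, no filter on low counts, no called doublets, thinned cells, CD3-detected cells only, and leaving out each mouse. Fits in Cd4-detected or Cd8a-detected cells only, and differences of stress effects between parts or classes, were added once values had been seen. The fits by edgeR were tested on simulated counts. Nothing says whether mice were handled or sequenced on separate days, and depth, given per mouse with the NK/T values, limits precision most in control mouse 1.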

Additional observations from a re-analysis of the deposited data

Results flagged for a closer look

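Cd4 in tumor cells stood out because the stress effect differed between classes. It was 2.26 higher on the log2 scale in tumor cells than in NK/T cells (edgeR, SE 0.31, adjusted p = 0.00134), and the adjusted p stayed under 0.05 in all 10 alternatives of that comparison, where the difference ranged from 2.0 to 2.49. Il7r stood out in the same way between dendritic cells and NK/T cells, with a difference of 1.56 (SE 0.27, adjusted p = 0.0363) that passed in 7 of 10 alternatives and ranged from 1.27 to 1.84. Cluster 20 held 25.3% to 40.5% of the dendritic cells of control mice and 50.4% to 63.3% of those of stress mice, and its part in this difference was not tested. Tumor, dendritic and NK/T values come from the same 6 libraries.

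Barcodes without an annotated cell type are outside every comparison above, and they held Cd4. In stress mice 0.561%, 2.73% and 2.90% of these barcodes had a Cd4 UMI (3 of 535, 15 of 549 and 13 of 448), above the control mice with 0 of 264, 1 of 389 and 1 of 395 barcodes. The lowest stress mouse rests on 3 barcodes, the shares are not thinned, and the median depth of these barcodes was 1559, 1964 and 3241 UMIs in control mice against 2901, 2798 and 3251 UMIs in stress mice. The shares of the other 8 members overlapped there, and the share of all genes that do not overlap was not computed.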

How the results depend on the processing

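In NK/T cells 96 genes passed with stress, against 479 with no filter on low counts, 229 with the replicate block, 424 without called doublets, 166 with DESeq2, 26 in Cd4-detected cells (added after the data were seen) and 38 to 125 without 1 mouse (38 without control mouse 1, 40 without control mouse 3 and 59 without stress mouse 1). The share of higher calls was 62.5%, 42.2% without called doublets and 46.2% to 75% without 1 mouse (46.2% without control mouse 2, 75% without control mouse 3). Of the members, 2 passed without called doublets and 0 in every other setting. Outside NK/T cells 1 member call became 9 with no filter, 6 with the replicate block (Cd4, Cd3d, Cd8b1 and Lef1 in tumor cells and Il7r and Cd3d in DCs, of which Cd3d, Cd8b1 and Lef1 entered through the stress mice), 2 with DESeq2 and 1 to 2 without 1 mouse. The 9 included Cd3d and Cd4 in monocytes, Cd3d and Cd3e in DCs and Cd3d, Cd8b1 and Il7r in B cells. Each of these reached the cutoff of the filter in more stress mice than control mice. DESeq2 added Cd4 in monocytes. The share of all genes called in these classes under these settings is not given here, so these counts are not read as a result. Between CD3-detected and CD3-free cells, 4 members and 491 genes became 2 and 256 with no replicate block, 2 members passed with DESeq2, and 2 to 4 without 1 mouse. Between Cd4 and Cd8a cells, 2 members and 779 genes became 1 and 443 with no replicate block, and 4 members passed with no filter (Cd8b1, Il7r, Cd3e and Cd40lg). Without called doublets Cd3e passed beside Cd8b1 and Il7r (edgeR, log2 fold change -0.31, adjusted p = 0.0271). For both splits the share of all genes called is not given for settings other than the replicate block, so those member counts are not read as a result.

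Directions turned for values that had not passed a test. With stress in NK/T cells they were Cd3e in Cd4-detected cells (0.0285), Cd8b1 and Lef1 in Cd8a-detected cells (0.11 and 0.14), and Cd8b1 without 1 mouse (-0.23 to 0.11). Between CD3-detected and CD3-free cells they were Il7r with no filter (0.0038) and without called doublets (0.0451), and without 1 mouse Il7r (-0.26 to 0.0765), Cd40lg (-0.36 to 1.10) and Lef1 (-0.55 to 0.16). Between Cd4 and Cd8a cells Cd3d ranged from -0.16 to 0.0865, and Cd8b1 with stress in tumor cells from -0.000386 to 2.26. The stress minus control share of CD3-detected cells ranged from -2.27 to 0.219 percentage points without 1 mouse, and that of cells with Tcf7 or Lef1 was -3.02 when thinned and -1.13 to 5.44 without 1 mouse. The cause was not tested in these cases. The replicate block, or its absence, changed no member call other than these and those given beside a result. Few NK/T cells in control mouse 1 and few Cd40lg and Tcf7 UMIs limit these values.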

Other observations

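Il7r was also found in small clusters annotated as endothelial, in 13.5% of the 229 cells of cluster 24 and 26.0% of the 73 cells of cluster 27, against 0.778% of all endothelial cells. After thinning to 1000 UMIs the shares in these clusters were 1.75% and 4.11%. Cluster 27 also had Cd8a in 58.9%, Cd8b1 in 47.9% and Cd4 in 20.5% of its cells (8.22%, 6.85% and 4.11% after thinning), while cluster 24 had none of these 3 genes. In cluster 27, 3 mice had at least 10 cells, and the means over them were 141, 110 and 71.7 CPM. The values of these mice ranged from 29.9 to 212 CPM for Cd8a, 29.9 to 156 CPM for Cd8b1 and 7.82 to 185 CPM for Cd4. Tcf7 was spread over the tumor cell clusters, with mean levels between 4.84 CPM (cluster 21, 667 cells) and 15.5 CPM (cluster 17, 1126 cells), and between 9.60 and 14.9 CPM in the other 8 clusters. The clusters were made from these same genes, so these values are a description. Of the NK/T cells without Cd4 and without Cd8a, 609 had a CD3 UMI and 182 had none, at median depths of 3479 and 3114 UMIs against 5516.5 for cells with Cd8a alone.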
